A study of Mus musculus with 4 samples.

Results

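The genes of the eukaryotic translation initiation factors were compared between hearts labelled Rhau KO and hearts labelled Control. Members were all genes whose symbol begins with Eif and a digit, each read by its brightest probe set among those annotated to 1 gene, which gave 47 of the 18193 genes tested. These 47 genes had 133 such probe sets, and another 6 probe sets that pair an Eif symbol with a further gene were left out. The 2 arrays labelled Rhau KO came from adult C57BL/6J mice of the genotype CAAG-ERT2-Cre;Rhau F/F, and the 2 labelled Control came from adult C57BL/6J mice of the genotype Rhau F/F. Mice of both genotypes carried the floxed Rhau allele and received 5 doses of tamoxifen by intraperitoneal injection at 2 months of age, and their hearts were taken 2 months afterwards. The Cre of this line acts under the CAAG promoter, which is active in most tissues, so deletion is not restricted to cardiomyocytes. Whole-heart RNA mixes all cell types of the organ, so fewer cells of a type and less RNA per cell cannot be told apart. No source used here says whether the 2 arrays of a group come from different animals, and p-values then measure only the spread between arrays.

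Initiation factors bring the small ribosomal subunit and the initiator tRNA to the start codon of an mRNA. The cap-binding complex eIF4F recruits the mRNA and unwinds its leader, the large scaffold eIF3 holds the small subunit, and eIF2 delivers the initiator tRNA as a GTP-bound complex. Start-codon recognition is guarded by eIF1 and eIF1A and triggers GTP hydrolysis with the help of eIF5, after which eIF5B joins the large subunit. Initiation is regulated mainly at eIF2, whose phosphorylation by a family of stress kinases blocks its recycling by eIF2B, and at eIF4E, which is sequestered by the eIF4E-binding proteins downstream of mTORC1. In the heart these routes govern protein synthesis during growth and stress. RHAU, encoded by Dhx36, is a helicase that unwinds G-quadruplexes in nucleic acids, including those in untranslated regions of mRNAs.

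Each array value is a MAS 5.0 intensity on a linear scale with arbitrary units. Differences are given on the log2 scale, Rhau KO minus Control, so that 1 stands for a fold of 2. Intensities of different probe sets are not set against each other. Before the members, the labels were checked. Dhx36 read 568 and 537 in the Rhau KO-labelled arrays, against 327 and 194 in the Control-labelled ones, which is opposite to the deletion that the label names. Esr1, the estrogen receptor gene from which the ERT2 part of the Cre fusion derives, read 5.40 and 25.5 in the Rhau KO-labelled arrays on its brightest probe set, while Control replicate 1 had 18036 and Control replicate 2 had 19847. The log2 difference of Esr1 was -10.66 on that probe set and -5.11 as the mean of its 3 probe sets. Whether these probes read the cassette was not tested. Every direction below is therefore a direction between array labels. Control replicate 1 was unlike the rest. The 19 cardiomyocyte markers had a median intensity of 35441 and 34664 in the Rhau KO-labelled arrays, while Control replicate 1 had 1502 and Control replicate 2 had 37486. The 20 skeletal muscle markers had medians of 54.8 and 41.9 in the Rhau KO-labelled arrays while Control replicate 1 had 32983 and Control replicate 2 had 34.5, and 19 of the 20 were over 2-fold higher in Control replicate 1 than in each other array. Of the cardiomyocyte markers, 10 were over 2-fold lower in Control replicate 1 than in each other array, among them Tnni3, cardiac troponin I, at 10.3, and Myh6, the cardiac alpha myosin, at 171. Among 11 heat shock genes, 6 were over 2-fold higher in Control replicate 2 than in each other array. Results are therefore given with all 4 arrays and without Control replicate 1, and the part of cell types or of heat shock in any difference was not tested.

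None of the 47 members passed an adjusted p of 0.05 from limma with all 4 arrays (0 of 47, background 0.0% of all genes), and 0 of 47 had an unadjusted p under 0.05 (background 4.31%, 785 of 18193 genes). The study's own thresholds were a fold of 2 together with an unadjusted p of 0.05. At these 0 members were higher (background 1.65%) and 0 were lower (background 1.64%) in the Rhau KO-labelled arrays. The methods' t-test on the same log2 values gave 1 of 47 members at an unadjusted p under 0.05, Eif4e3 (2.13%, background 5.17%). With 2 arrays on each side, the lowest p an exact permutation test allows is 0.333. The median log2 difference was -0.03 over the members and 0.09 over all genes. The median size of the difference, whatever its sign, was 0.13 for the members, 0.39 for all genes and 0.28 for the 9096 brighter genes. In 30 of the 47 members the log2 difference lay within 0.25 of 0. A scale change moved the signs of these small differences. As deposited, 21 members were higher in the Rhau KO-labelled arrays. After median centring of the arrays, which changed the median of all genes by -0.12, 8 were. Measured against the median of all genes, 9 of 47 members stood above it on both of these scales and 19 under quantile normalization.

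**Figure D1:**
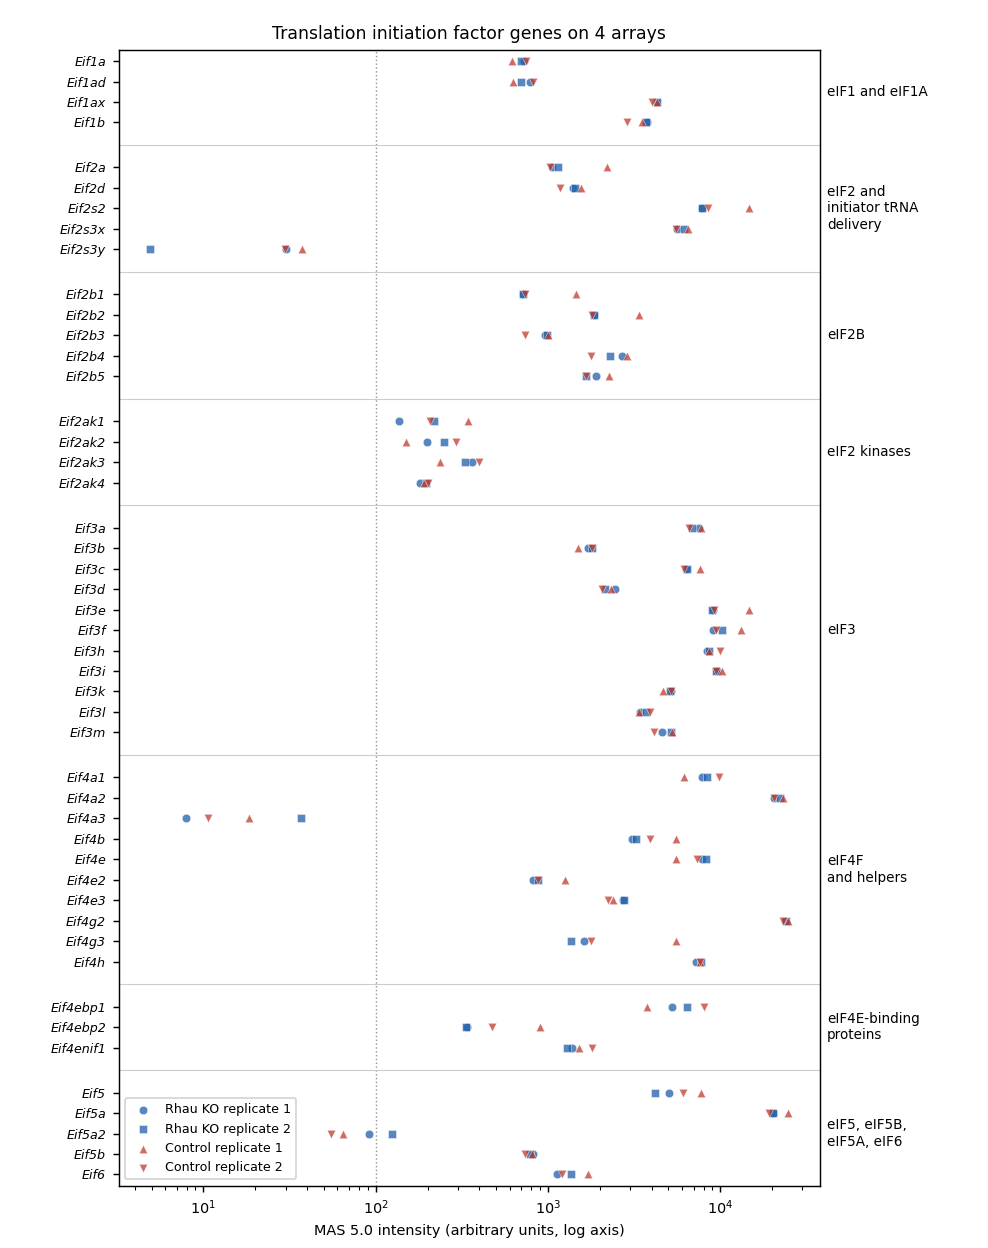
MAS 5.0 intensity (arbitrary units, log axis) of the 47 initiation factor genes on each of the 4 arrays, grouped by factor complex, with blue circles and squares for Rhau KO replicates 1 and 2 and red upward and downward triangles for Control replicates 1 and 2. The dotted line marks an intensity of 100. Most eIF3 subunits have 4 overlapping symbols, while for Eif4g3, Eif2s2 and Eif2b1 the upward triangle of Control replicate 1 stands to the right.

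The members varied little from array to array. The range over the 4 arrays was under 1.5-fold in 27 of 47 members (57.4%, background 24.4%). Among the brighter genes, which vary less on such arrays, it was under 1.5-fold in 27 of 44 members (61.4%, background 40.2%). The members' median range was 0.45 on the log2 scale, against 1.07 for all genes and 0.71 for the brighter genes. Only 3 members averaged under 100 in intensity, Eif2s3y, Eif4a3 and Eif5a2, and 7376 of the 18193 genes did.

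The arrays of the 2 groups did not overlap for 13 members. Both Rhau KO-labelled arrays read above both Control arrays for 4 of 47 members (background 21.7%), namely Eif1b, Eif4e, Eif4e3 and Eif5a2. Both read below for 9 of 47 (background 14.6%), namely Eif2b1, Eif2s2, Eif3e, Eif4b, Eif4e2, Eif4ebp2, Eif4enif1, Eif4g3 and Eif5. The gaps were of very different sizes. For Eif4e2, for example, Rhau KO replicate 2 and Control replicate 2 both rounded to 871.

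Start-codon selection by eIF1 and eIF1A was covered by 4 members, and all 4 had ranges under 1.5-fold on their brightest probe sets. Eif1ax, the X-linked gene of eIF1A, read 4229 and 4277 in the Rhau KO-labelled arrays, against 4321 and 4016 in the Control-labelled ones. Its paralog Eif1a read 727 and 699 against 618 and 747. For both the groups overlapped, with log2 differences of 0.03 and 0.07. On its other probe sets Eif1ax read 1555 and 1435 against 2743 and 1383, and 259 and 281 against 745 and 213. Control replicate 1 was the high array on each of these. Eif1ad, which encodes a protein with an eIF1A-type domain, read 787 and 694 against 624 and 818. Eif1b, a close relative of the start-codon gatekeeper eIF1, was the member of this role whose groups did not overlap. It read 3756 and 3690 in the Rhau KO-labelled arrays and 3530 and 2879 in the Control-labelled ones, a log2 difference of 0.22 ± 0.21 (SE, adjusted p = 0.873 from limma). Most of that gap came from Control replicate 2.

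The delivery of initiator tRNA was covered by 5 members with a median log2 difference of -0.45, which was 0.08 without Control replicate 1. Eif2s2, the beta subunit of eIF2, read 7875 and 7823 in the Rhau KO-labelled arrays, against 14767 and 8520 in the Control-labelled ones. The log2 difference was -0.52 ± 0.32 (SE, adjusted p = 0.873 from limma), and it was -0.12 without Control replicate 1. Control replicate 1 was thus the high array, and the other 3 lay close together. Eif2a, a separate single-chain factor that can bring initiator tRNA to some mRNAs, had the same shape at 1055 and 1141 against 2188 and 1027. The X-linked gamma subunit gene Eif2s3x did not, with 5615 and 6157 in the Rhau KO-labelled arrays and 6485 and 5565 in the Control-labelled ones. Eif2d, which encodes another factor able to bind tRNA at the small subunit, read 1405 and 1429 against 1549 and 1171.

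Eif2s3y, the Y-linked paralog of the gamma subunit gene, had the lowest log2 difference of all members at -1.46 ± 1.06 (SE, adjusted p = 0.873 from limma). Its intensity was 4.93 in Rhau KO replicate 2 and between 29.9 and 37.3 in the other 3 arrays, of which Rhau KO replicate 1 was level with Control replicate 2. All 4 readings were dim, and the difference rested on Rhau KO replicate 2. The Y-linked genes Kdm5d and Uty also read between 22.5 and 37.1 on every array, while Xist, the RNA of the inactive X chromosome, read 10547 and 11993 in the Rhau KO-labelled arrays and 9198 and 13398 in the Control-labelled ones.

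The nucleotide exchange factor eIF2B, which reloads eIF2 with GTP, was measured for all 5 of its subunits. Their median log2 difference was -0.13, and it was 0.09 without Control replicate 1. The highest reading of all 5 was in Control replicate 1. The alpha subunit gene Eif2b1 read 721 and 721 in the Rhau KO-labelled arrays, against 1459 and 735 in the Control-labelled ones. The beta subunit gene Eif2b2 read 1859 and 1857 against 3365 and 1790. In both genes the other 3 arrays lay close together, so that the log2 difference of Eif2b1 was -0.52 ± 0.39 (SE) with all arrays and -0.03 ± 0.16 (SE) without Control replicate 1. The delta subunit gene Eif2b4 read 2678 and 2283 in the Rhau KO-labelled arrays and 2885 and 1778 in the Control-labelled ones and was lowest in Control replicate 2. The gamma subunit gene Eif2b3, the partner of epsilon in the catalytic part, was lowest there too, at 962 and 981 against 1002 and 733. Without Control replicate 1 the log2 difference was 0.48 ± 0.14 (SE, unadjusted p = 0.0161, adjusted p = 0.245 from limma) for Eif2b4 and 0.41 ± 0.15 (SE, unadjusted p = 0.0346, adjusted p = 0.322 from limma) for Eif2b3. The epsilon subunit gene Eif2b5, which holds the exchange activity, read 1903 and 1653 against 2254 and 1666.

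On their brightest probe sets the 4 kinases that phosphorylate eIF2 had log2 differences between -0.63 and 0.18, and their groups overlapped in every case. Eif2ak1, the heme-regulated kinase HRI, read 136 and 219 in the Rhau KO-labelled arrays and 342 and 207 in the Control-labelled ones. Eif2ak2, the double-stranded RNA sensor PKR, read 198 and 248 against 149 and 291. Eif2ak3, the endoplasmic reticulum kinase PERK, read 361 and 332 against 237 and 397. For PKR and PERK the lowest and the highest array were both labelled Control. Eif2ak4, the amino acid sensor GCN2, was the steady one, at 181 and 197 in the Rhau KO-labelled arrays and 190 and 201 in the Control-labelled ones. Without Control replicate 1 all 4 log2 differences on the brightest probe sets were below 0, from -0.39 for Eif2ak2 to -0.09 for Eif2ak4. For Eif2ak1 the sign depended on the probe set. With all 4 arrays its other probe sets had log2 differences from 0.02 to 0.54, and the mean of its 5 probe sets was 0.10. One of them read 225 and 205 in the Rhau KO-labelled arrays, against 330 and 94.4 in the Control-labelled ones.

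The 11 eIF3 subunits were the steadiest large group on their brightest probe sets. Their log2 differences ran from -0.36 to 0.09, with a median of -0.03, and the range over the 4 arrays was under 1.5-fold in 10 of the 11. Eif3a, the largest subunit and a backbone of the complex, read 7525 and 6889 in the Rhau KO-labelled arrays, against 7684 and 6609 in the Control-labelled ones. Eif3i, a WD-repeat subunit, read 9592 and 9428 against 10196 and 9470. Eif3k, a small subunit at the edge of the complex, read 5196 and 5132 against 4670 and 5197. In each of these readings the groups overlapped, and the gap between their means was smaller than the spread of the Control arrays. Other probe sets were less steady. One of Eif3i read 6991 and 7447 in the Rhau KO-labelled arrays, against 11905 and 6711 in the Control-labelled ones. One of Eif3a read 3795 and 3752 against 4387 and 4008, where the groups did not overlap. The subunit genes Eif3b, Eif3d, Eif3l and Eif3m behaved alike, with log2 differences from -0.03 to 0.09. Eif3c read 6350 and 6387 in the Rhau KO-labelled arrays and 7645 and 6188 in the Control-labelled ones. On another of its probe sets it read 1140 and 1146 against 1502 and 866.

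The exceptions within eIF3 were array-specific. Eif3e, a subunit also known as INT6, read 9133 and 8985 in the Rhau KO-labelled arrays, against 14736 and 9177 in the Control-labelled ones, a log2 difference of -0.36 ± 0.29 (SE, adjusted p = 0.873 from limma) that was -0.02 without Control replicate 1. Eif3f, one of the subunits with an MPN domain, read 9084 and 10169 against 13245 and 9473. Eif3h, the other MPN-domain subunit, had its high array in Control replicate 2, at 8382 and 8659 in the Rhau KO-labelled arrays and 8547 and 10017 in the Control-labelled ones. On the brightest probe sets, only Eif3e among the 11 had groups that did not overlap.

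The eIF3 genes that were steady on their brightest probe sets include 4 whose promoter holds a short motif. This motif is bound by ETS-family activators and is common at housekeeping genes. The motif searched was CCGGAAG or its reverse complement CTTCCGG, on both strands, in windows reaching 250 bases before and 50 after each transcription start in RefSeq, build GRCm38.p6. The windows shown here run 5′ to 3′ on the strand of the gene, with the motif in capitals, to show what these promoters share.
Eif3c: attctttggtgCTTCCGGgaagtgacgccc
Eif3c, second match: aaccttttcctCTTCCGGcgtcgtgcctgt
Eif3d: gctgtgacacaCTTCCGGttgtgtctcact
Eif3l: gctgggcgggaCTTCCGGtccggccaagca
Eif3m: ctgtggctgacCCGGAAGcggttgtgcgta

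The first Eif3c window lies at chr7:126566416-126566445 on the minus strand with the motif at position -68 from the start, and the second at chr7:126566382-126566411 with the motif at -34. The Eif3d window lies at chr15:77970876-77970905 on the minus strand with the motif at -70. The Eif3l window lies at chr15:79075177-79075206 on the plus strand with the motif at -35. The Eif3m window lies at chr2:105017064-105017093 on the minus strand with the motif at -55. All 5 matches stand upstream of the annotated start. A promoter was matched by symbol for 38 of the 47 members, and 15 of these (39.5%) held the motif, against 2265 of 17492 protein-coding genes (12.9%) and 2910 of all 32851 promoters (8.86%). The motif did not follow the array pattern. It was present in 9 of 21 members with a range under 1.5-fold and in 6 of 17 with a wider range, in 4 of 8 eIF3 genes and in 0 of 5 genes of the eIF2 role. A match describes these letters in this window and is not a measured binding site.

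The eIF4F complex and its helpers were covered by 10 members with a median log2 difference of -0.01. The helicase genes Eif4a1 and Eif4a2, whose products unwind the mRNA leader, differed in their spread. Eif4a2 read 20592 and 22251 in the Rhau KO-labelled arrays, against 23231 and 20615 in the Control-labelled ones, a log2 difference of -0.03. Eif4a1 read 7794 and 8343 against 6135 and 9811, so that its lowest and highest arrays were both labelled Control. Eif4a3, the paralog that marks exon junctions, was dim on its only unambiguous probe set, at 7.94 and 36.9 in the Rhau KO-labelled arrays and 18.3 and 10.6 in the Control-labelled ones.

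The helicase cofactors eIF4B and eIF4H, which stimulate eIF4A, also parted. Eif4b read 3084 and 3262 in the Rhau KO-labelled arrays, against 5525 and 3917 in the Control-labelled ones, a log2 difference of -0.55 ± 0.25 (SE, unadjusted p = 0.0825, adjusted p = 0.873 from limma). Both Control arrays stood above both others, with Control replicate 1 the higher. Without Control replicate 1 the log2 difference of Eif4b was -0.30 ± 0.11 (SE, unadjusted p = 0.0314, adjusted p = 0.309 from limma). Eif4h read 7269 and 7781 in the Rhau KO-labelled arrays and 7613 and 7622 in the Control-labelled ones, a log2 difference of -0.02 ± 0.18 (SE).

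Of the 3 cap-binding genes, Eif4e and Eif4e3 read above and Eif4e2 below in both Rhau KO-labelled arrays, each on its brightest probe set. Eif4e, the cap-binding subunit of eIF4F, read 7884 and 8318 in the Rhau KO-labelled arrays, against 5557 and 7377 in the Control-labelled ones, a log2 difference of 0.34 ± 0.23 (SE, adjusted p = 0.873 from limma). Control replicate 1 was the low array, and the difference was 0.13 ± 0.10 (SE) without it. Eif4e3, a cap-binding relative with weaker contacts to the cap, read 2742 and 2778 against 2393 and 2237. The 2 arrays of each group lay close together for Eif4e3, and its log2 difference was 0.25 ± 0.19 (SE) with all 4 arrays and 0.30 ± 0.11 (SE) without Control replicate 1. Eif4e2, the cap-binding repressor 4EHP, read 816 and 871 in the Rhau KO-labelled arrays and 1252 and 871 in the Control-labelled ones. On every other probe set of Eif4e the groups overlapped, for example at 2697 and 3791 against 2225 and 3302. They also overlapped on the second probe set of Eif4e3, at 2179 and 2397 against 1840 and 2186. For Eif4e2 the groups overlapped only on a dim probe set.

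The 2 scaffold genes differed in spread on their brightest probe sets. Eif4g2, which encodes the eIF4G relative DAP5 that lacks the eIF4E-binding region, read 23766 and 23929 in the Rhau KO-labelled arrays, against 24778 and 23208 in the Control-labelled ones. Its log2 difference was -0.01 ± 0.19 (SE). Other bright probe sets of Eif4g2 were less flat. One read 14283 and 13112 in the Rhau KO-labelled arrays, against 10829 and 11497 in the Control-labelled ones, where the groups did not overlap. Another read 7084 and 6323 against 10035 and 5869. Eif4g3, a full eIF4G scaffold, read 1627 and 1366 against 5504 and 1770. Control replicate 1 was over 2-fold above each other array. The log2 difference of Eif4g3 was -1.07 ± 0.58 (SE, unadjusted p = 0.133, adjusted p = 0.873 from limma), which passed the fold but not the p threshold, and it was -0.25 ± 0.15 (SE) without Control replicate 1.

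The inhibitors of eIF4E gave 3 unlike patterns. Eif4ebp1, the classic mTORC1-regulated repressor of eIF4E, read 5247 and 6451 in the Rhau KO-labelled arrays, against 3764 and 8029 in the Control-labelled ones. The Rhau KO-labelled arrays lay between the 2 Control arrays, and the log2 difference was 0.08 ± 0.42 (SE). Eif4ebp2, its paralog, read 340 and 333 against 896 and 473. Here both Control arrays stood above, and the log2 difference was -0.95 ± 0.39 (SE, unadjusted p = 0.0640, adjusted p = 0.873 from limma), or -0.49 ± 0.21 (SE, unadjusted p = 0.0621) without Control replicate 1. Eif4enif1, the transporter that carries eIF4E into the nucleus and represses bound mRNAs, read 1385 and 1292 in the Rhau KO-labelled arrays and 1511 and 1803 in the Control-labelled ones. Its log2 difference was -0.30 ± 0.22 (SE) with all arrays and -0.43 ± 0.13 (SE, unadjusted p = 0.0174, adjusted p = 0.252 from limma) without Control replicate 1.

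Among the late-acting factors Eif5 had the smallest p of all 47 members. Eif5 encodes the protein that makes eIF2 hydrolyse its GTP at the start codon. It read 5016 and 4198 in the Rhau KO-labelled arrays, against 7757 and 6079 in the Control-labelled ones, a log2 difference of -0.58 ± 0.23 (SE, unadjusted p = 0.0593, adjusted p = 0.873 from limma). The groups did not overlap, and the difference was -0.41 ± 0.13 (SE, unadjusted p = 0.0258, adjusted p = 0.288 from limma) without Control replicate 1. Eif5b, the subunit-joining GTPase, was flat at 819 and 791 in the Rhau KO-labelled arrays and 807 and 733 in the Control-labelled ones. Eif6, which keeps ribosomal subunits apart, read 1124 and 1366 against 1718 and 1207.

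The hypusine-containing factor eIF5A, which aids peptide bond formation and termination, is encoded by Eif5a and its tissue-restricted paralog Eif5a2. Eif5a read 20139 and 20146 in the Rhau KO-labelled arrays, against 24775 and 19276 in the Control-labelled ones. Eif5a2 read 91.8 and 124 against 64.6 and 55.4, with both Rhau KO-labelled arrays above both others. Its log2 difference was the highest of all members at 0.84 ± 0.44 (SE, adjusted p = 0.873 from limma), at readings near or under 100. The second probe set of Eif5a2 read 42.3 and 39.2 in the Rhau KO-labelled arrays and 23.3 and 45.2 in the Control-labelled ones, where the groups overlapped.

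**Figure D2:**
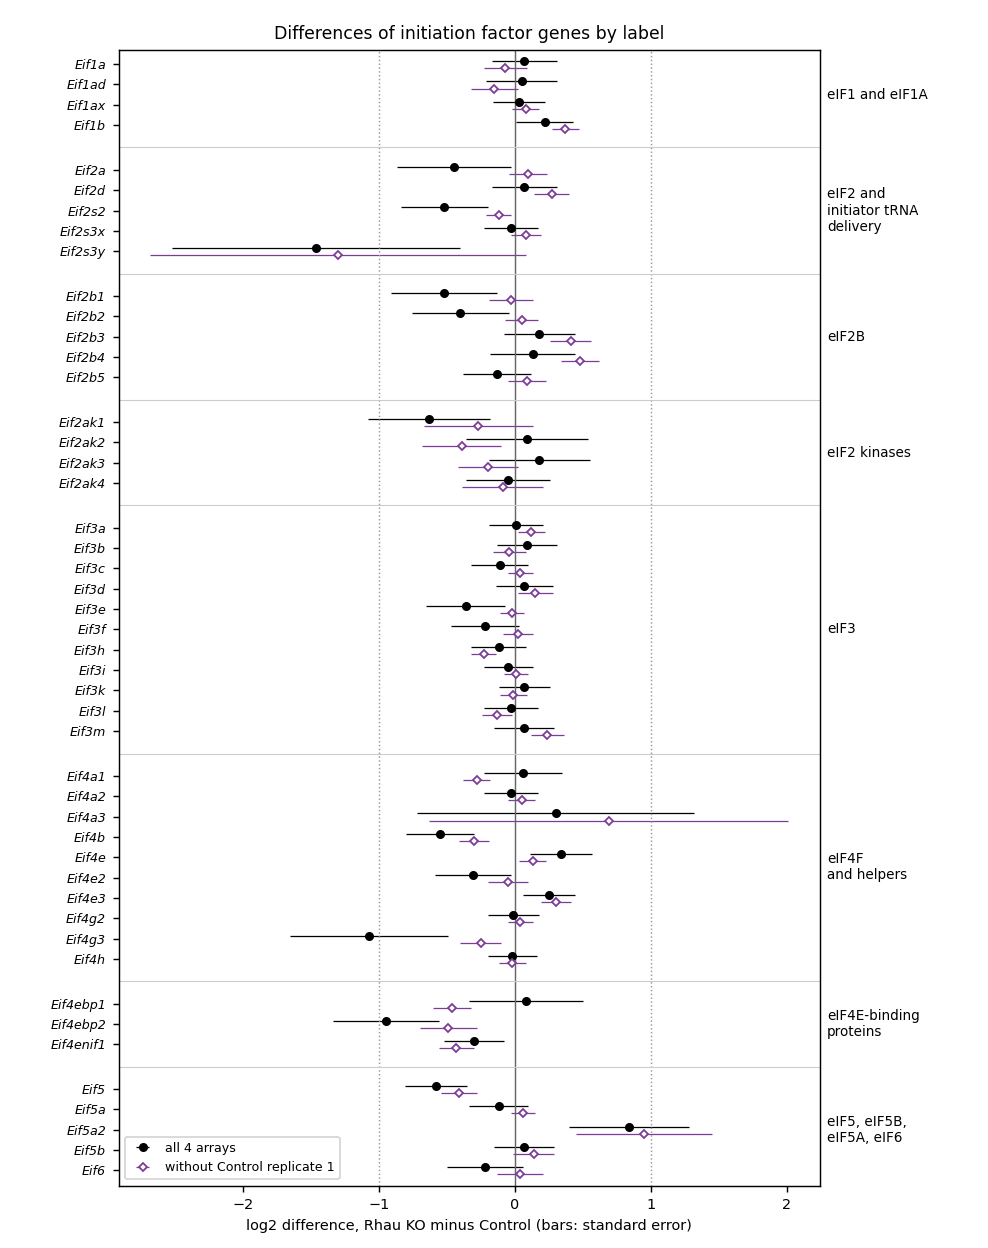
Log2 difference, Rhau KO minus Control, of each of the 47 genes with its standard error (bars), in black for all 4 arrays and as open purple diamonds without Control replicate 1. The dotted lines mark a fold of 2. With all 4 arrays Eif4g3 lies at -1.07 and Eif5 at -0.58, and without Control replicate 1 they lie at -0.25 and -0.41.

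Much of the spread of the members came from 1 array. Each array was set against the mean log2 of the other 3. Control replicate 1 read at least 1.5-fold above the others for 11 of 47 members (23.4%, background 22.3%), which were Eif2a, Eif2ak1, Eif2b1, Eif2b2, Eif2s2, Eif2s3y, Eif3e, Eif4b, Eif4ebp2, Eif4g3 and Eif5. Of these, Eif2s3y counts through its dim reading of 4.93 in Rhau KO replicate 2, against 29.9 to 37.3 on the other arrays. That reading also places it above on Rhau KO replicate 1 and on Control replicate 2. Control replicate 1 read at least 1.5-fold below the others for 3 of 47 (6.38%, background 29.2%), which were Eif2ak2, Eif2ak3 and Eif4ebp1. Its share of high members was thus close to that of all genes, while its share of low members was lower than that of all genes. Among the brighter genes, Control replicate 1 read high for 22.7% of 44 members (background 16.4%) and low for 6.82% (background 26.4%). Control replicate 2 read at least 1.5-fold above the others for 2 members, Eif2s3y and Eif4ebp1 (4.26%, background 19.0%), and below for 2, Eif4a3 and Eif5a2 (4.26%, background 16.4%). Rhau KO replicate 1 had 1 member above (2.13%, background 18.7%) and 3 below (6.38%, background 13.7%), and Rhau KO replicate 2 had 2 above (4.26%, background 18.5%) and 3 below (6.38%, background 14.0%). Among the brighter genes these backgrounds were smaller. There Rhau KO replicate 1 read below for 4.55% of members (background 4.88%) and Rhau KO replicate 2 for 4.55% (background 5.53%). Neither read above for any member (backgrounds 7.39% and 7.55%). Control replicate 2 read above for 2.27% (background 11.3%) and below for 0.0% (background 6.64%). The skeletal muscle and cardiomyocyte markers given above move with Control replicate 1 beside all of these members.

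**Figure D3:**
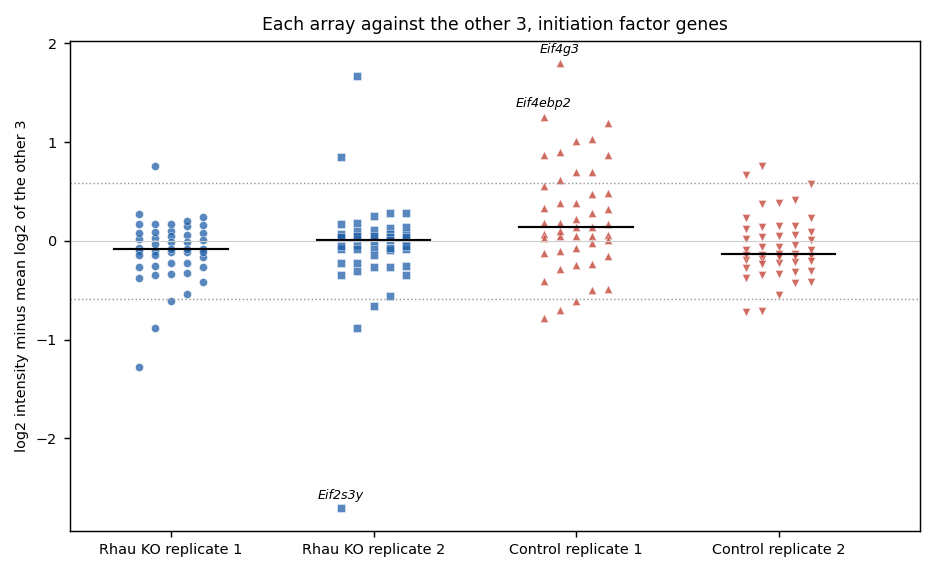
Log2 intensity of each of the 47 genes on 1 array minus the mean log2 of the other 3 arrays, for Rhau KO replicates 1 and 2 and Control replicates 1 and 2. Points are genes, black bars are medians (-0.08, 0.01, 0.14 and -0.13 in that order) and dotted lines mark 1.5-fold. Control replicate 1 has 11 genes above the upper line, led by Eif4g3.

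Without Control replicate 1 the 2 Rhau KO-labelled arrays were set against Control replicate 2 alone, which is assumed to vary like the other arrays. Again 0 of 47 members passed an adjusted p of 0.05 from limma (background 0.819%), and 0 of 47 passed both thresholds of the study (background 4.51%). The median log2 difference was 0.01 over the members and 0.03 over all genes, and 31 of 47 members lay within 0.25 of 0. At an unadjusted p under 0.05 there were 4 higher members (8.51%, background 7.51%), namely Eif1b, Eif2b3, Eif2b4 and Eif4e3. There were 6 lower members (12.8%, background 5.82%), namely Eif3h, Eif4a1, Eif4b, Eif4ebp1, Eif4enif1 and Eif5. Such calls, both directions together, were more frequent among the brighter genes, which include 44 of the 47 members. The backgrounds here are shares of all genes and are not matched for brightness, so no excess is read from these counts. Of the members named, Eif1b, Eif4e3, Eif4b, Eif4enif1 and Eif5 also had non-overlapping groups with all 4 arrays, in the same direction. Eif4a1 and Eif4ebp1 changed sign, with log2 differences of 0.06 and 0.08 for all 4 arrays and -0.28 and -0.46 without Control replicate 1. The eIF4E-binding proteins and Eif4enif1 were all below 0 there, with a median of -0.46. The heat shock genes moved with the same comparison, with medians of 7618 and 8584 in the Rhau KO-labelled arrays, while Control replicate 2 had 16511, and all 11 of their log2 differences were below 0. Their part in the values of the members was not tested.

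The opposite choice made many calls. Without Control replicate 2, the lone Control was the array with skeletal muscle markers. Then 3 members were higher at an adjusted p under 0.05 from limma (6.38%, background 13.5%), Eif4a1, Eif4e and Eif4ebp1. In the same setting 11 members were lower (23.4%, background 8.98%), Eif2a, Eif2b1, Eif2b2, Eif2s2, Eif3e, Eif3f, Eif4b, Eif4e2, Eif4ebp2, Eif4g3 and Eif5. Both thresholds of the study were passed by 3 of 47 members (6.38%, background 18.0%), Eif2b1 at -1.02, Eif4ebp2 at -1.41 and Eif4g3 at -1.88 on the log2 scale. These members separate the Rhau KO-labelled arrays from Control replicate 1, and the markers of the 2 muscle types differ between the same arrays. The lone Control is again assumed to vary like the other arrays. The backgrounds are again not matched for brightness, so no excess is read from these counts either.

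More than 1 probe set was available for 37 of the 47 members, and all probe sets of a gene had differences of the same sign in 14 of them. Eif5 was among these. Its 5 probe sets gave log2 differences between -0.58 and -0.30, and the groups did not overlap on 4 of them. Eif4a1 and Eif4ebp1 repeated their order on each of their 3 probe sets, with Control replicate 1 lowest and Control replicate 2 highest. Eif3e had 3 bright probe sets at -0.51 to -0.32 and a dim one at 1.05, which read 59.3 and 79.3 in the Rhau KO-labelled arrays and 46.4 and 23.6 in the Control-labelled ones. Eif4b had 2 probe sets at -0.65 and -0.55, and another that read 1023 and 1031 against 945 and 970.

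The probe sets of Eif4ebp2, Eif4g3 and Eif2s2 disagreed in size and in sign. For Eif4ebp2 the log2 differences of 5 probe sets ran from -1.42 to 0.14. One of them read 65.7 and 62.2 in the Rhau KO-labelled arrays, against 225 and 125 in the Control-labelled ones, a log2 difference of -1.39 ± 0.46 (SE, unadjusted p = 0.0326, adjusted p = 0.886 over all probe sets from limma). For Eif4g3 the 4 probe sets ran from -4.39 to 0.24. The lowest came from a dim probe set at 4.08 and 6.31 in the Rhau KO-labelled arrays and 208 and 54.4 in the Control-labelled ones. For Eif2s2 the 6 probe sets ran from -1.01 to 0.35, and 5 of the 6 had their highest reading in Control replicate 1.

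**Figure D4:**
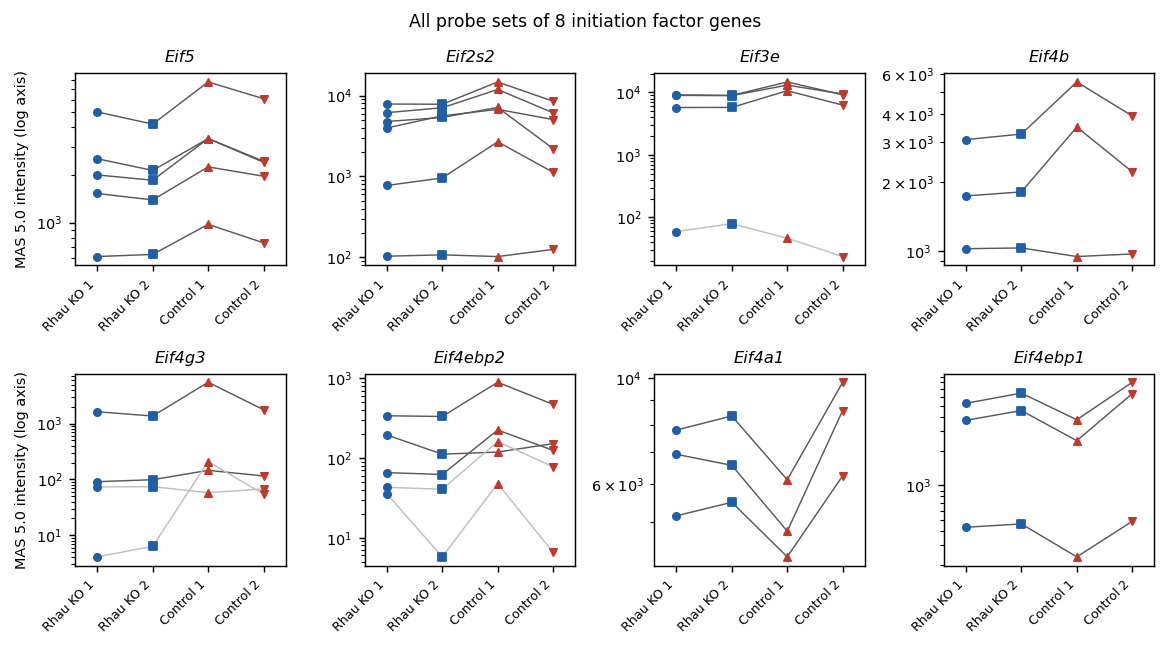
MAS 5.0 intensity (arbitrary units, log axis, scaled separately for each gene) of all probe sets of 8 genes on Rhau KO replicates 1 and 2 and Control replicates 1 and 2. Each line is a probe set, in pale grey where its mean is under 100. The lines of Eif5 peak together at Control replicate 1, those of Eif4a1 and Eif4ebp1 dip there together, and those of Eif4g3 and Eif4ebp2 cross.

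Other genes of translation were read by the same fit, in lists written with earlier results of these data known. Of 20 measured partners of initiation, 0 passed both thresholds, and their median log2 difference was -0.11, or -0.03 without Control replicate 1. The smallest p among them belonged to Mknk2, a kinase that phosphorylates eIF4E. It read 10928 and 12934 in the Rhau KO-labelled arrays, against 19858 and 24960 in the Control-labelled ones (unadjusted p = 0.0127, adjusted p = 0.873 from limma). Without Control replicate 1 its log2 difference was -1.07 ± 0.12 (SE, adjusted p = 0.0348 from limma). Cdc123, a chaperone for the assembly of eIF2, read 3165 and 3062 against 4686 and 4293 (unadjusted p = 0.0436, adjusted p = 0.873 from limma). Paip2b, an inhibitor of poly(A)-binding protein, read 1689 and 1519 in the Rhau KO-labelled arrays and 3968 and 2207 in the Control-labelled ones. In all 3 the groups did not overlap.

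Of 10 measured elongation and termination genes, 0 passed both thresholds, with a median log2 difference of -0.09. Gspt1, the termination GTPase eRF3, read 2210 and 1994 in the Rhau KO-labelled arrays, against 2741 and 3368 in the Control-labelled ones (unadjusted p = 0.0640 from limma). Of 12 measured genes of the mTORC1 route to S6 kinase, 0 passed both thresholds, with a median of -0.11, or 0.05 without Control replicate 1. Neither list held a gene at an unadjusted p under 0.05 with all 4 arrays.

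The integrated stress response, the transcriptional programme downstream of eIF2 phosphorylation, was read by 18 genes with a median log2 difference of -0.36, or -0.16 without Control replicate 1. Of these, 1 passed both thresholds, as lower in the Rhau KO-labelled arrays (background 1.64%). Atf4, its central transcription factor, read 3417 and 2685 in the Rhau KO-labelled arrays, against 7711 and 5387 in the Control-labelled ones, a log2 difference of -1.09 ± 0.28 (SE, unadjusted p = 0.0133, adjusted p = 0.873 from limma). It was -0.83 ± 0.16 (SE) without Control replicate 1 and -0.35 as the mean of the 3 probe sets of Atf4. Among the 18, the Rhau KO-labelled arrays read below both Control arrays for 7 (background 14.6%) and above them for 1, Trib3 (background 21.7%). Ppp1r15a, the stress-induced subunit that directs dephosphorylation of eIF2, read 932 and 993 in the Rhau KO-labelled arrays, against 1220 and 1307 in the Control-labelled ones. In other genes a single array stood out. Control replicate 1 was over 2-fold above each other array for 3 of the 18, Chac1, Cth and Nupr1, and Control replicate 2 for 1, Atf3. Cth read 150 and 167 in the Rhau KO-labelled arrays and 431 and 71.3 in the Control-labelled ones. Nupr1, which is among the 7 genes that read below, had 300 and 247 against 832 and 412. Chac1, a glutathione-degrading enzyme induced by ATF4, read 285 and 381 in the Rhau KO-labelled arrays and 4655 and 293 in the Control-labelled ones. Atf3, an immediate stress factor, read 729 and 718 against 322 and 4421. Chac1 was high in Control replicate 1 alone and Atf3 in Control replicate 2 alone, the array with high heat shock genes.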

How the data were processed

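RNA of 4 samples labelled as heart, 2 Rhau KO and 2 Control, was hybridised to Affymetrix 3′ expression arrays. The values are intensities on a linear scale that the authors computed by MAS 5.0 in GeneSpring and deposited as 1 table of 45101 probe sets. MAS 5.0 scales every array to the same trimmed mean, so a difference is relative to the rest of the array, and 51.8% to 54.0% of probe sets read under 100, where values are noisy. No detection calls or scan dates were used here, and the number of arrays limits the precision.

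The 64 control probe sets were left out. By the platform annotation 34945 probe sets carried 1 gene symbol, 932 several and 9160 none, and those without exactly 1 symbol were not used. Each gene was read by its brightest probe set by mean log2 intensity over the 4 arrays, with no pseudocount and no filter on dim genes, and the 47 members all entered the test. Groups were taken from the sample labels. The difference of log2 intensities, Rhau KO minus Control, was tested in limma (version 3.58.1, R version 4.3.3) by lmFit followed by eBayes with a trend, and the Benjamini-Hochberg adjustment ran over 18193 genes. The code was tested on simulated arrays with known changes. Same-numbered arrays did not deviate together (r = 0.00603 over 18193 genes), so replicate numbers were not taken as pairs.

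The members, roles and gene lists were chosen with earlier results of these data known. The rule for naming genes allowed every member, with array values for paralogs, for the brightest and dimmest of each role and for members past the thresholds, and up to 3 genes with the smallest p of each other list. Where a member or a gene of another list is given outside this rule, it was chosen after its values were seen. Among the integrated stress response genes this holds for Ppp1r15a, Cth, Chac1, Atf3 and Trib3. Each result was recomputed after median centring or quantile normalization, with a pseudocount of 32, without a trend in eBayes, on brighter genes, with a gene's probe sets averaged or taken singly, with the replicate block, by the methods' t-test, and with each array dropped in turn. Other steps used Python 3.11.15 with pandas 2.3.3, numpy 2.4.6 and matplotlib 3.10.9. Promoter sequences are those of RefSeq, build GRCm38.p6. Protein sequences were not used here.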

Additional observations from a re-analysis of the deposited data

How the results depend on the processing

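Members at an adjusted p under 0.05 from limma numbered 0 in each alternative except those that left out an array, where the count ran from 0 to 14 of 47, with 14 only without Control replicate 2. The count past both thresholds of the study was 0 in the main comparison, 1 with the mean of all probe sets (Eif4g3 at -1.42) and 2 of 133 with every probe set singly (Eif4ebp2 and Eif4g3), and it ran from 0 to 3 when 1 array was left out. Without Rhau KO replicate 1 the member past both was Eif2s3y at -2.76, and without Control replicate 2 they were Eif2b1, Eif4ebp2 and Eif4g3. Members whose groups did not overlap numbered 13 of 47, 41 of 133 with every probe set singly and 18 to 41 when 1 array was left out, since fewer arrays overlap less often by construction. The median log2 difference lay between -0.15 (median centring) and 0.01 (without Control replicate 1). The median log2 intensity over members had an SD of 0.37 between arrays of a group. That SD is of intensities and does not measure the spread of the median difference. At an unadjusted p under 0.05, 1 of 47 members was called with median centring (Eif5, against 817 of 18193 genes), 1 by the t-test (Eif4e3, against 941 genes) and 0 with the replicate block (against 694 genes).

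With the replicate block 0 members passed both thresholds, and 634 of all genes did against 599 without it. Over all genes the count past both thresholds was 338 with a pseudocount of 32, 167 among the brighter genes, 351 by the t-test, and 285, 287, 820 and 3282 when 1 array was left out, the last without Control replicate 2. For single members 519 values moved by less than the spread between that gene's replicates, which is wide where Control replicate 1 stands out, and 55 of these changed sign. Another 26 moved by more than that spread, 13 of them with a change of sign, and 16 passed a threshold that the main value missed. The 519 include the fits without a trend, with the replicate block, by the t-test and on brighter genes. In those fits the log2 difference equals the main one by construction, so they say nothing about its stability. With 2 arrays per group and dim readings for Eif2s3y, Eif4a3 and Eif5a2, differences of those genes were not resolved.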
